A study of Mus musculus with 10 samples.

Results

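Skeletal muscle of sedentary mice with exercised ancestors was compared with that of sedentary mice with sedentary ancestors, over both descendant generations at once. Arrays were chosen by their labelled generation and ancestry alone: the 4 arrays of F1 EX and F2 EX against the 4 arrays of F1 SED and F2 SED, 8 of the 10 arrays of the series. EX stands for exercised and SED for sedentary. The founders (F0, C57BL/6) either had voluntary exercise or led a sedentary life, and were paired with mates of the same exposure. Their F1 offspring, and the F2 offspring of F1 littermate pairs, were sedentary in both ancestries, so no descendant in any of these groups had been exercised. All were males of the C57BL/6 strain, killed at 8 weeks of age. Each array carried gastrocnemius (calf muscle) RNA pooled from 5 animals, and each of the 4 descendant groups had 2 pools. Whether the 2 pools of a group held different animals, how many founder pairs or litters stood behind them, and at what hour muscle was taken, none of the sources used here gives. Because both parents of an F1 animal shared an exposure, maternal and paternal contributions cannot be told apart. Any p-value here therefore rests on the spread from pool to pool alone, and that spread may be technical.

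Gastrocnemius is made mostly of fast, glycolytic fibres with a smaller share of slow, oxidative ones. Exercise in the animal itself is known to promote mitochondrial and slow fibre genes through the coactivator Ppargc1a, to turn over and refill glycogen, and to remodel the collagen sheath around fibres. Muscle also runs its own circadian clock, in which Arntl (also called BMAL1) and Clock switch on the Per and Cry genes, whose products then hold Arntl and Clock back, while REV-ERB and ROR receptors set the level of Arntl itself. Whether ancestors' exercise leaves any such trace in the muscle of unexercised descendants is the question that the comparison addresses.

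Values are deposited log2 probe set signals, 1 probe set for each of the 11963 genes tested, and differences are EX minus SED on the log2 scale. The tissue carried its own label: the 15 skeletal muscle genes of the marker list, among them Acta1, Ckm and Mylpf, had mean signals between 10.83 and 13.49 over the arrays. One descendant array stood apart. The median correlation (Pearson) of F1 EX pool 1 with every other array was 0.979, that of the remaining descendant arrays 0.99 to 0.993, and it was the lowest or the highest of the 8 in 6547 genes. Where leaving it out turned a list or moved a named estimate strongly, both values are given. In RNA pooled from whole muscle, fewer cells of a type and less RNA per cell cannot be told apart.

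Among genes with separated pools, the smallest p on the low side was that of Ppp1r3c, whose product tethers protein phosphatase 1 to glycogen and so favours glycogen synthesis, with an estimate of -0.56, or 1.48-fold lower in EX. It was followed there by Fndc10 at -0.45 and Fam43b at -0.44. On the high side the smallest p among such genes were those of Myo1d, an unconventional myosin, at 0.41, the adaptor Maged1 at 0.38, the secreted protein Srpx2 at 0.43 and the splicing regulator Nova1 at 0.40. The clock activator Arntl, whose pools overlapped slightly, had -0.51, and the slow fibre genes Tnnt1 and Myh7, with separated pools, had 0.29 each. No gene passed limma's test at an adjusted p of 0.05: 0 of 11963 genes were called (0.0%), and the lowest adjusted p was 0.888. An unadjusted p under 0.05 was reached by 597 genes (4.99%), 296 with estimates above 0 (2.47%) and 301 below (2.52%).

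These differences were small over the whole genome. Estimates ran from -1.08 (the interferon-induced GTPase Iigp1) to 0.77 (the plasma protein gene Ahsg) with a median of 0.01, and 6371 genes (53.3%) lay above 0. Only 4 genes (0.0334%) had estimates of 0.5 or more and 30 (0.251%) of -0.5 or less. The median 95% interval reached 0.23 either side of its estimate. For 10662 genes (89.1%) the whole interval lay within 0.5 of 0, and for 11917 (99.6%) within 1. All 4 EX pools lay above all 4 SED pools in 209 genes (1.75%) and below them in 153 (1.28%). With each array centred on its own median the same counts were 277 and 101. Without F1 EX pool 1 they were 400 (3.34%) and 328 (2.74%), but 3 pools separate from 4 more easily than 4 pools do. In either direction 362 genes (3.03%) had pools that did not overlap.

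Signals below are given for EX in the order F1 pool 1, F1 pool 2, F2 pool 1, F2 pool 2, and then for SED in the same order. Ppp1r3c had signals of 8.06, 8.38, 8.27 and 8.46 in EX and of 8.81, 8.55, 9.16 and 8.92 in SED. The highest EX pool lay below the lowest SED pool, which by itself places the gap in both generations. The estimates were -0.46 in F1 and -0.67 in F2. The additive limma fit gave -0.56 (SE 0.114, 95% interval from -0.82 to -0.31, unadjusted p = 0.000493, adjusted p = 0.888). Without F1 EX pool 1 the estimate was -0.52.

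Most other genes of glycogen metabolism had estimates near 0. Of 28 members tested, 19 had estimates above 0 and the list median was 0.03, against 53.3% and 0.01 over all genes. Glycogen synthase Gys1 had 0.02, muscle glycogen phosphorylase Pygm 0.01 and the primer glycogenin (Gyg) -0.07. The related targeting subunit Ppp1r3d, whose pools overlapped, had 0.16. Pgm2, which interconverts sugar phosphates, had the list's highest estimate at 0.45 (unadjusted p = 0.0182). Its signals were 5.34, 5.00, 4.66 and 4.47 in EX and 4.14, 4.67, 4.50 and 4.36 in SED, so that the F1 EX pools were the highest and the F2 pools of both ancestries lay close together (estimates of 0.77 in F1 and 0.13 in F2). Without F1 SED pool 1 the estimate was 0.28.

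Arntl had signals of 4.83, 5.20, 4.83 and 4.93 in EX and of 5.67, 5.64, 5.13 and 5.41 in SED. EX was below SED within each generation, by -0.63 in F1 and -0.39 in F2, and across generations the groups met only where F1 EX pool 2 exceeded F2 SED pool 1. The estimate over both was -0.51 (SE 0.113, 95% interval from -0.76 to -0.26, unadjusted p = 0.000938, adjusted p = 0.888), and -0.41 without F1 EX pool 1. Its partner Clock had -0.08, with overlapping pools.

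**Figure D1:**
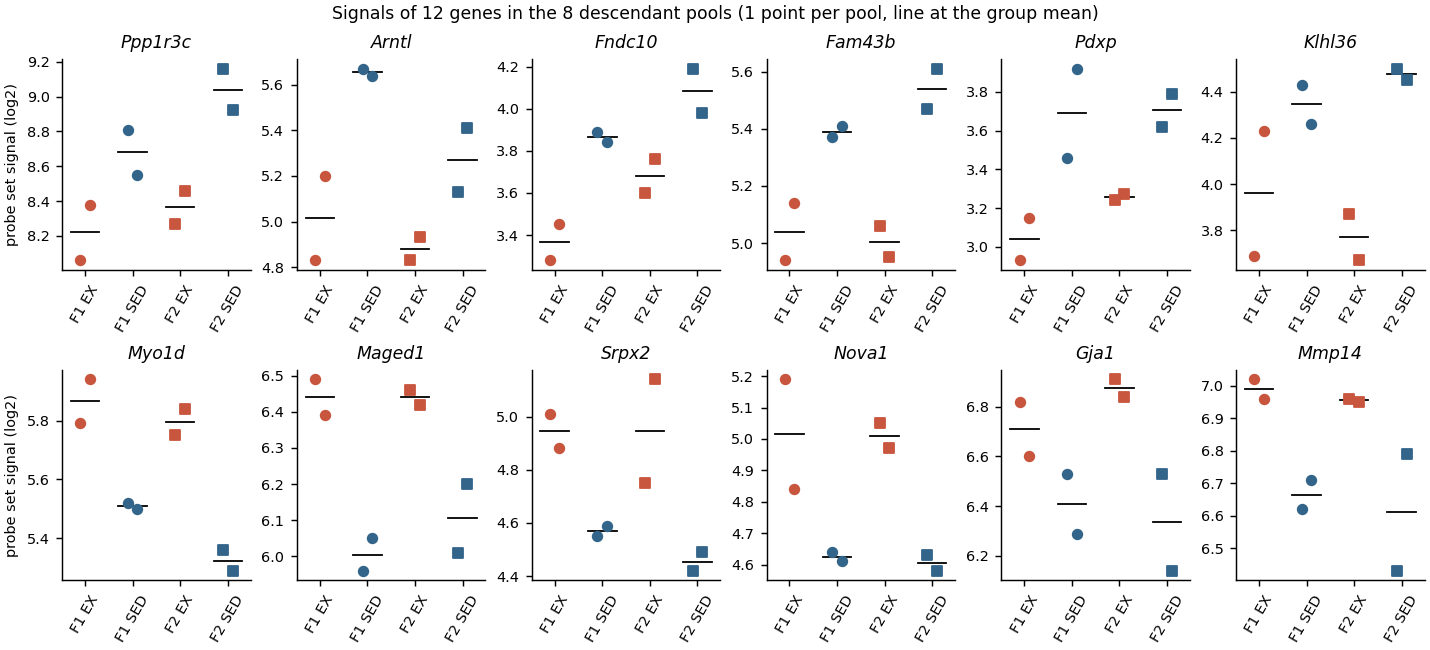
Log2 probe set signals (vertical axes, which differ between panels) of 12 genes in the 4 descendant groups (horizontal axes), with 1 point per pool and a line at each group mean, EX in red and SED in blue, F1 as circles and F2 as squares. In Ppp1r3c every EX pool lies below 8.55, the lowest SED pool, while in Maged1 every EX pool lies above 6.20, the highest SED pool.

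On the repressing and output side of the clock, 15 of 19 genes had estimates above 0, with a list median of 0.08, against 53.3% and 0.01 over all genes. Only Usp2, a ubiquitin protease with clock-driven expression, had pools that did not overlap, 1 of 19 against 1.75% of all genes in that direction. It stood at 9.18, 9.10, 9.21 and 9.18 in EX and at 9.06, 8.79, 9.02 and 8.86 in SED, a difference of 0.23 (unadjusted p = 0.0271, adjusted p = 0.888). Per1 had the highest estimate of the list, 0.37 with a 95% interval from -0.04 to 0.78, and it was 0.21 without F1 SED pool 2 and 0.57 without F1 SED pool 1. Its signals were 6.15, 6.21, 6.55 and 6.15 in EX and 6.38, 5.48, 6.07 and 5.66 in SED, and the F1 SED pools alone spanned most of that range.

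The core repressors Per2 (0.24), Cry1 (0.19), Per3 (0.19) and Cry2 (0.18) followed, each with an interval that included 0. F1 EX pool 1 had the highest signal of the 8 in each of these genes, at 5.07 in Per2 and 5.95 in Cry1. Without it the estimates were 0.11 for Per2, 0.07 for Cry1, 0.10 for Per3 and 0.11 for Cry2. The output regulator Dbp had 0.13 (0.06 without that pool), and REV-ERB alpha (Nr1d1), which represses Arntl, had -0.03 with an interval from -0.23 to 0.17. None of the 4 members below 0 (Nr1d1, Tef, Nfil3 and Bhlhe41) was lower than -0.06.

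**Figure D2:**
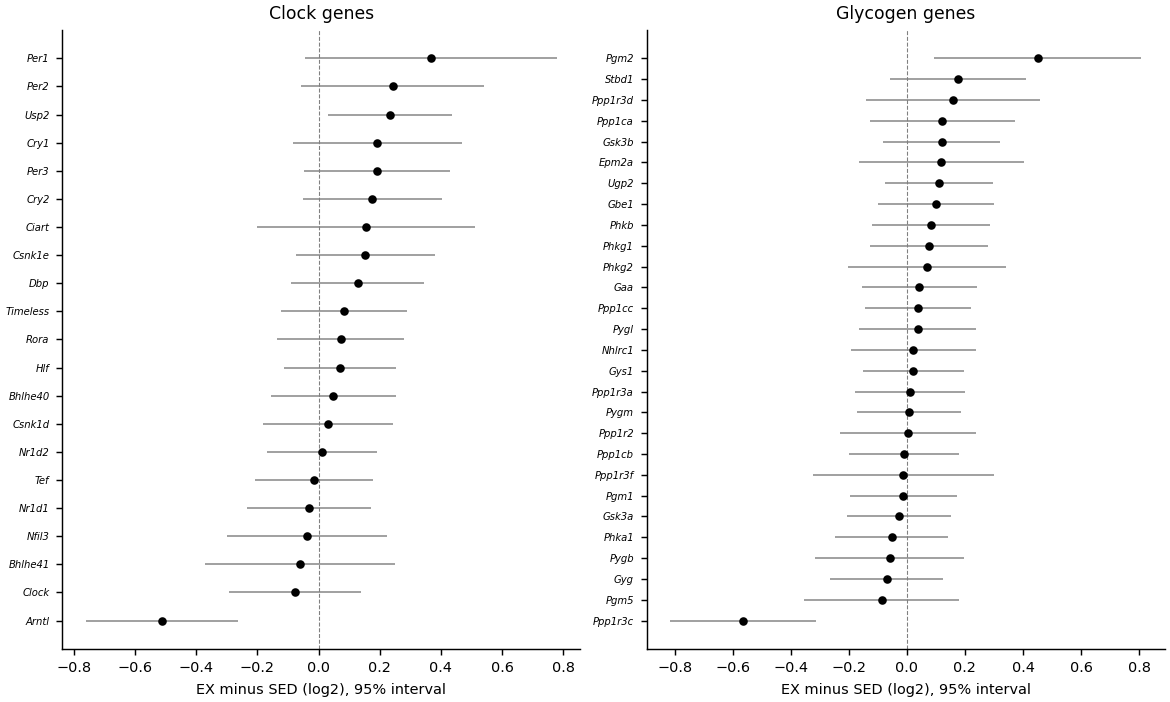
EX minus SED estimates over both generations (points, log2, horizontal axis) with 95% intervals (lines) for 21 clock genes, left, and 28 glycogen genes, right, ordered by estimate. Arntl at -0.51 and Ppp1r3c at -0.56 sit apart at the low end, while most other intervals include 0.

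Promoter windows of these genes are shown because their members are tied by known sequence elements. The E-box CACGTG is the letter string bound by the Arntl and Clock pair, the D-box TTATGTAA that of Dbp and its relatives, and AGGTCA that of the ROR and REV-ERB receptors. Both strands of RefSeq windows (build GRCm38.p6, 250 bases before to 50 after each start) were searched. Of 26 listed genes, the clock lists and Ppp1r3c, 21 had a window. An E-box lay in the windows of 6 of them, Ppp1r3c, Per1, Cry1, Ciart, Tef and Bhlhe41, against 7.15% of all 32851 windows and 11.7% of tested genes with a window. A D-box lay in Per3 and Timeless (0.938% of windows), and AGGTCA in Arntl, Clock, Per1, Nfil3 and Nr1d2 (16.3% of windows). A match is a description of letters and not a bound site. The 250 bases before the start are printed for 4 genes and 30 bases for Arntl, in lower case with the matched element in capitals. The Ppp1r3c stretch is chr19:36736605-36736854, minus strand, with its E-box at -104 from the start, and that of Per1 is chr11:69098699-69098948, plus strand, with its E-box at -166. The Cry1 stretch is chr10:85185055-85185304, minus strand, with its E-box at -60. Per3 is shown at chr4:151044666-151044915, minus strand, with D-boxes at -205 and -158, and Arntl at chr7:113207530-113207559, plus strand, with AGGTCA at base 32 of the transcript.
Ppp1r3c: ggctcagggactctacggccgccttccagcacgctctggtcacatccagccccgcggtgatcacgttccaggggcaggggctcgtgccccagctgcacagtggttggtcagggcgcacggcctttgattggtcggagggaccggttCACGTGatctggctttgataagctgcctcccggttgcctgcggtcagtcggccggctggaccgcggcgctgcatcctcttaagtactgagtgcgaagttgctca
Per1: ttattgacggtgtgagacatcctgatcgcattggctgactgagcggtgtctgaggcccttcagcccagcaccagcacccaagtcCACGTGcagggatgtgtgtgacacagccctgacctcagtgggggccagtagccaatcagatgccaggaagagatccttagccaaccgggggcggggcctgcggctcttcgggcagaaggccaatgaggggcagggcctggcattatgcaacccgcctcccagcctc
Cry1: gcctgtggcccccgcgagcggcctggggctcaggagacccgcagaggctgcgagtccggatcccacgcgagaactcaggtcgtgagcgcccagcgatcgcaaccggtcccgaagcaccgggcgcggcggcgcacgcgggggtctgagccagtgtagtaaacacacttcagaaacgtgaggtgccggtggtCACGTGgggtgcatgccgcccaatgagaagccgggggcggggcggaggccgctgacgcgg
Per3: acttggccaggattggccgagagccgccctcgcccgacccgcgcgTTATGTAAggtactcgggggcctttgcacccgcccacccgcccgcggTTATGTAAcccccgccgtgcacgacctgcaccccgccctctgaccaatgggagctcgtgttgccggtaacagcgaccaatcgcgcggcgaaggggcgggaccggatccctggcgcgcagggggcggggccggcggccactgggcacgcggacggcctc
Arntl: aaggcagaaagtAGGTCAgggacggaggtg

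Below 0, the other genes with the smallest p among those whose pools did not overlap had a range of functions, and several had low signals. Fndc10, a membrane protein with a fibronectin domain, had 3.28, 3.45, 3.60 and 3.76 in EX and 3.89, 3.84, 4.19 and 3.98 in SED (estimate -0.45). Fam43b had 4.94, 5.14, 5.06 and 4.95 in EX and 5.37, 5.41, 5.47 and 5.61 in SED (-0.44). Pdxp, a phosphatase that removes phosphate from vitamin B6, had 2.93, 3.15, 3.24 and 3.27 in EX and 3.46, 3.92, 3.62 and 3.79 in SED (-0.55). In all of these the EX pools of both generations lay beneath the SED pools, which follows from the choice of genes with separated pools. Klhl36 had an estimate of -0.55, with F1 EX pool 2 at 4.23 close to the lowest SED pool at 4.26. The store-operated calcium channel subunit Orai2 had -0.52, ezrin (Ezr), which links membrane to actin, -0.45, and the interleukin 3 receptor subunit Il3ra -0.41. The zinc finger genes Zfp692 and Zfp219 had -0.44 and -0.34, Urad -0.38, Ppp1r13l -0.33, Pear1 -0.33, the phospholipase Pld2 -0.31 and Prss51 -0.29.

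Rab2a, a small GTPase of traffic between the endoplasmic reticulum and Golgi, had the lowest estimate among named genes with separated pools, -0.60, and 1 array stood far from the others. Its signal was 7.75 in F1 EX pool 1 and 9.82 to 9.86 in the other 3 EX pools, against 9.86 to 10.04 in SED, so that the groups separated only beyond the second decimal. Without F1 EX pool 1 the estimate was -0.08.

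Above 0, Myo1d, an unconventional myosin of membrane traffic, had 5.79, 5.94, 5.75 and 5.84 in EX and 5.52, 5.50, 5.36 and 5.29 in SED. Its limma estimate was 0.41 (SE 0.0835, 95% interval from 0.23 to 0.59, unadjusted p = 0.000523, adjusted p = 0.888), or 1.33-fold higher. Both F1 and F2 EX pools were clear of every SED pool, as the choice of genes with separated pools requires. Maged1, an adaptor of the MAGE family, had 6.49, 6.39, 6.46 and 6.42 in EX and 5.96, 6.05, 6.01 and 6.20 in SED (0.38). Nova1, an RNA-binding splicing regulator, had 5.19, 4.84, 5.05 and 4.97 in EX and 4.64, 4.61, 4.63 and 4.58 in SED (0.40). Its SED pools lay within a range far narrower than that of the EX pools.

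Others of this set were Utp14a, a ribosome biogenesis factor, at 0.39, the chaperone Dnajb1 at 0.35, the polyamine acetyltransferase Sat1 at 0.35, Rasl11b at 0.34, the mannose-activating enzyme subunit Gmppb at 0.33, Eola1 at 0.33 and the inositol phosphatase Inpp1 at 0.28. Borcs6, a part of the complex that positions lysosomes, had 0.41, of which F1 EX pool 1 at 6.69 was the main contributor. The other EX pools stood at 5.95 to 6.11, and without that array the estimate was 0.23. Adamtsl3, an ADAMTS-like matrix glycoprotein, had 0.41, with F2 EX pool 1 highest at 4.40 and F2 SED pool 1 lowest at 3.39. Without the latter its estimate was 0.26.

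Some of the 209 genes (1.75%) with separated pools above 0 belong to the extracellular matrix. By list, such genes were 2 of 17 fibrillar and associated collagens and 2 of 21 remodelling genes. They were 0 of 15 basement membrane, 0 of 16 small proteoglycan, 0 of 14 matricellular and 0 of 17 tendon and cartilage genes. Srpx2, a secreted sushi-repeat protein, had 5.01, 4.88, 4.75 and 5.14 in EX and 4.55, 4.59, 4.42 and 4.49 in SED, an estimate of 0.43 (SE 0.101). Mmp14, which cuts collagen and activates Mmp2, had 7.02, 6.96, 6.96 and 6.95 in EX and 6.62, 6.71, 6.43 and 6.79 in SED, an estimate of 0.34 (SE 0.0955). The collagen-degrading protease cathepsin K (Ctsk) had 0.33, and in these 3 genes no EX pool overlapped a SED pool. Mmp2 itself had 0.17, with overlapping pools.

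Of 17 fibrillar and associated collagen genes tested, 16 had estimates above 0 and the list median was 0.15, against 53.3% and 0.01 over all genes. An unadjusted p under 0.05 was reached by 6 of them, all above 0, against 296 of 11963 genes in that direction (2.47%). Col1a1, the main chain of type I collagen, had 12.02, 11.71, 11.91 and 12.06 in EX and 11.65, 11.67, 11.69 and 11.77 in SED. The groups overlapped through F1 EX pool 2, and the estimate was 0.23 (0.17 without F1 EX pool 1). Col3a1 had 0.23, Col11a1 0.28 and Col6a2 0.22. Col6a1 (0.22) and Col5a1 (0.21) had EX pools wholly above the SED pools, as did 1.75% of all genes.

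The count of collagen genes above 0 was 14 to 17 of 17 when each pool was left out in turn. The count at an unadjusted p under 0.05 depended more on single pools, at 0 without F2 EX pool 2, 1 without F2 SED pool 1, 2 without F1 EX pool 1 or F1 SED pool 1, and 3 without F1 SED pool 2. By pool, the median deviation of the 17 genes from their own means was 0.12, -0.03, 0.06 and 0.17 in EX and -0.12, -0.05, -0.10 and -0.06 in SED. Every EX pool thus lay above every SED pool in this summary, by a margin of the second decimal between F1 EX pool 2 and F1 SED pool 2.

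Other matrix lists leaned the same way with lower medians. Basement membrane genes, which include type IV collagen and laminins, had 13 of 15 estimates above 0 (median 0.08), genes of matrix remodelling and crosslinking 16 of 21 (0.08), and small proteoglycans and glycoproteins 12 of 16 (0.07). Without F2 EX pool 2 the remodelling count was 13 of 21 (0.03) and the small proteoglycan count 9 of 16 (0.04). Without F1 SED pool 1 they were 19 and 15. Of the small proteoglycan genes 8 of 16 lay above 0 in F1 and 14 in F2. Matricellular genes, signalling proteins of the matrix such as thrombospondins, had 12 of 14 above 0 (median 0.09), and tendon and cartilage genes 13 of 17 (0.07), with Thbs4 among the members that both lists hold. For these last lists the generations are given apart, with no test of the difference: the medians were -0.13 and -0.14 in F1 and 0.29 and 0.25 in F2. In F1, 4 of 14 matricellular and 5 of 17 tendon genes lay above 0, and in F2 13 of 14 and 17 of 17. Over all genes 5852 of 11963 did in F1 and 7257 in F2. F2 EX pool 2 had the highest median deviation in both lists, 0.24 and 0.29, and without it 8 of 14 matricellular and 7 of 17 tendon genes lay above 0. The fibroblast and fibro-adipogenic marker list, the cells that make much of this matrix, had 9 of 12 above 0 with a median of 0.05, and its part in the matrix values was not tested.

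**Figure D3:**
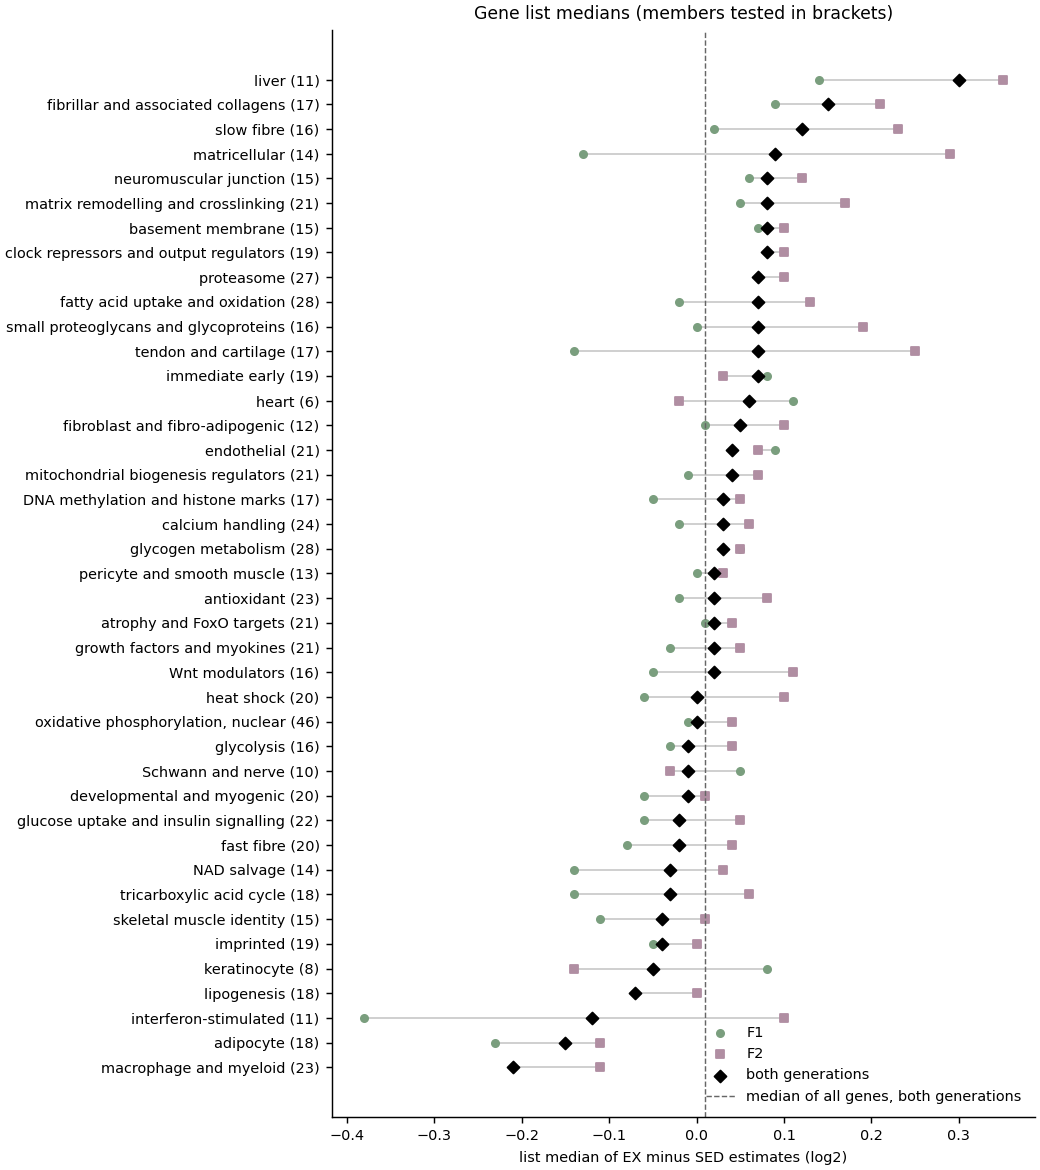
Median EX minus SED estimate (log2, horizontal axis) of each gene list with 5 or more members tested (vertical axis, members in brackets), over both generations (black diamonds), in F1 (green circles) and in F2 (mauve squares), with the median of all genes (0.01) dashed. Collagens and slow fibre genes lie to the right and adipocyte and myeloid markers to the left, and the F1 and F2 medians of matricellular and tendon genes lie on opposite sides of 0.

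Slow fibre genes had 14 of 16 estimates above 0 and a median of 0.12. Slow troponin T (Tnnt1) had 8.53, 8.63, 8.64 and 8.66 in EX and 8.37, 8.38, 8.28 and 8.28 in SED, an estimate of 0.29 (SE 0.082, unadjusted p = 0.00503, adjusted p = 0.888). Slow myosin heavy chain (Myh7) had 9.42, 9.24, 9.29 and 9.39 in EX and 9.16, 8.95, 8.89 and 9.19 in SED, an estimate of 0.29 (SE 0.101). In both genes the lowest EX pool lay above the highest SED pool, which held for 2 of the 16 slow fibre genes and 1.75% of all genes. Slow troponin I (Tnni1) had 0.21 with overlapping pools, and Csrp3, a stretch-linked LIM protein, -0.20. Without F1 EX pool 1 these were 0.11 and -0.05.

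The slow list median was 0.02 in F1, with 9 of 16 above 0, and 0.23 in F2, with 15 of 16, and the F2 EX pools had the highest median deviations of the 8 (0.24 and 0.18). Without F2 EX pool 1 the count above 0 was 10 of 16 with a median of 0.07. The fast fibre genes also leaned upward in F2, with 6 of 20 above 0 in F1 and 19 of 20 in F2. Over all genes 5852 of 11963 lay above 0 in F1 and 7257 in F2. The 20 fast fibre genes had a median of -0.02 with 9 above 0, and none had an unadjusted p under 0.05. Their direction turned on F1 EX pool 1: without it 18 of 20 lay above 0 with a median of 0.02, and without F1 SED pool 1 12 did, with 0.01. Genes of the neuromuscular junction, where motor nerves meet fibres, had 13 of 15 above 0 with a median of 0.08, led by Dok7 at 0.28 and the acetylcholine receptor subunit Chrnb1 at 0.27. The highest Chrnb1 signal, 7.07, was that of F1 EX pool 1, and without that pool the estimate was 0.11. That of Dok7 was 0.14 without F1 SED pool 2.

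Of the genes picked because they are followed in exercised muscle, several had small estimates. Myh7, given above at 0.29 with separated pools, also belongs to this set. Ppargc1a had 6.94, 6.83, 6.86 and 6.64 in EX and 7.0, 6.61, 6.86 and 6.52 in SED, with full overlap and an estimate of 0.07 (95% interval from -0.19 to 0.33). The interval of citrate synthase (Cs) ran from -0.32 to 0.09, that of the pyruvate dehydrogenase kinase Pdk4 from -0.17 to 0.34, and that of the angiogenic factor Vegfa from -0.26 to 0.11. The glucose handling genes Slc2a4 and Hk2 had 0.04 and 0.11, and the AMP kinase subunit Prkaa2 -0.04. The growth factor Igf1 had -0.02, and the lipid-sensing receptor Ppara 0.09.

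Besides Myh7, others of this set had estimates further from 0. Tfam, which packages and transcribes mitochondrial DNA, had 6.42, 5.99, 6.33 and 6.24 in EX and 5.68, 6.23, 5.94 and 5.91 in SED, with an estimate of 0.30 (unadjusted p = 0.0454, adjusted p = 0.888). The groups overlapped through F1 SED pool 2, and without F1 SED pool 1 the estimate was 0.20. The uncoupling protein Ucp3 had 0.27 (interval from -0.05 to 0.59), and 0.14 without F1 EX pool 1, which had its highest signal of 8.80. The growth inhibitor myostatin (Mstn) had -0.24 with 6.98 in F1 EX pool 1 and 7.88 to 8.05 in the other descendant pools, and 0.0 without that pool.

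The mitochondrial lists lay near 0 with all pools. Nuclear-encoded oxidative phosphorylation genes had 23 of 46 above 0 and none at an unadjusted p under 0.05, tricarboxylic acid cycle genes 7 of 18 with a median of -0.03, and glycolytic genes 8 of 16 with -0.01. With 1 pool left out, the oxidative phosphorylation count above 0 ran from 18 of 46 (without F1 SED pool 2) to 34 of 46 (without F1 SED pool 1). Without F1 EX pool 1 the cycle genes had 12 of 18 above 0 and a median of 0.03, and the glycolytic genes 11 of 16 and 0.02. Without F1 SED pool 1 the cycle genes had 11 of 18 and 0.03, and without F2 SED pool 2 the glycolytic genes had 5 of 16. Fatty acid uptake and oxidation genes had 19 of 28 above 0 and a median of 0.07, led by the thioesterase Acot2 at 0.31 (unadjusted p = 0.0167). In F2 alone 25 of these 28 genes, 16 of the 18 cycle genes and 35 of the 46 oxidative phosphorylation genes lay above 0, and in F1 13, 5 and 18. Over all genes 7257 of 11963 lay above 0 in F2 and 5852 in F1. That lean had the same direction but was smaller, as a share of genes, than in these lists.

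Most adipocyte genes had estimates below 0. Of 18 adipocyte genes tested, 1 lay above 0 and 17 below, with a median of -0.15, against 46.7% of all genes below 0 and their median of 0.01. An unadjusted p under 0.05 was reached by 4 of them, all below 0 (2.52% of all genes), by 7 without F2 SED pool 1, and by 1 without F1 EX pool 1 or F1 SED pool 1. Lipogenesis genes had 6 of 18 above 0 and a median of -0.07, and 9 of 18 above 0 without F1 SED pool 1 (median -0.01) or without F2 SED pool 2 (-0.02). The lipid droplet protein gene Cidec had 4.69, 4.68, 5.15 and 5.21 in EX and 5.56, 5.63, 5.10 and 5.62 in SED, an estimate of -0.55 (SE 0.158, unadjusted p = 0.00577, adjusted p = 0.888). Only F2 SED pool 1 lay among the EX pools. Adiponectin (Adipoq) had 4.27, 4.24, 4.70 and 5.09 in EX and 5.60, 5.02, 4.51 and 5.71 in SED (-0.63). The regulator Cebpa (-0.26) was the adipocyte list's only gene with separated pools, 1 of 18 against 1.28% of all genes in that direction.

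The stearate desaturase Scd1 had 8.69, 8.31, 8.79 and 8.72 in EX and 9.76, 9.34, 8.39 and 9.85 in SED, an estimate of -0.71. In Scd1, Adipoq and resistin (Retn) the F2 SED pools stood on either side of the F2 EX pools, pool 1 low and pool 2 high. The estimates were -1.05 in F1 for Scd1 and Adipoq, and -0.36 and -0.22 in F2, and neither gene passed the test of the difference between generations (adjusted p = 0.919 by limma for each). Without F2 SED pool 1 the estimates were -1.07 for Scd1, -0.96 for Adipoq and -0.72 for Cidec, and without F2 SED pool 2 -0.48, -0.48 and -0.51. Whether the amount of fat tissue taken with the muscle differed between pools was not tested.

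Markers of macrophages and other myeloid cells lay below 0 in 17 of 23 genes, with a median of -0.21, against 46.7% of all genes and their median of 0.01. Lysozyme Lyz1 had -0.38, the complement component C1qa -0.24 and the chemokine Ccl9 -0.36 (-0.24 without F1 SED pool 2). The antigen presentation gene Cd74 had 5.46, 5.59, 5.70 and 6.00 in EX and 6.12, 6.78, 5.45 and 6.96 in SED, an estimate of -0.64 in which F2 SED pool 1 was the lowest of the 8. It was -1.0 without that pool and -0.39 without F2 SED pool 2. An unadjusted p under 0.05 was reached by 5 of the 23 genes, all below 0, against 2.52% of all genes. It was reached by 11 of 23 without F2 SED pool 1, when 300 of 11963 genes reached it below 0, and by 0 without F1 SED pool 2, when 247 did. It was reached by 1 without F2 EX pool 1, by 2 without F2 SED pool 2 and by 3 without either F1 EX pool. The median deviation of the list was -0.15 in F2 SED pool 1 and 0.18 in F2 SED pool 2, the same order as for the adipocyte list (-0.10 and 0.18).

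Interferon-stimulated genes had 9 of 11 estimates below 0 with a median of -0.12, which was -0.38 in F1 and 0.10 in F2. The F1 value followed 1 pool. Irgm1, an immunity-related GTPase, had 7.84 in F1 SED pool 2 and 4.73 to 5.38 in the other 7 descendant pools, and its estimate was -0.54 with that pool and 0.17 without it. Among genes picked after their values were seen, its relative Iigp1 had 9.25 in that pool and 3.98 to 4.62 in the others, the checkpoint ligand Cd274 6.41, the chemokine Cxcl9 5.72 and the guanylate-binding protein Gbp7 8.64. Without F1 SED pool 2 the list had 5 of 11 above 0 and a median of -0.02.

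**Figure D4:**
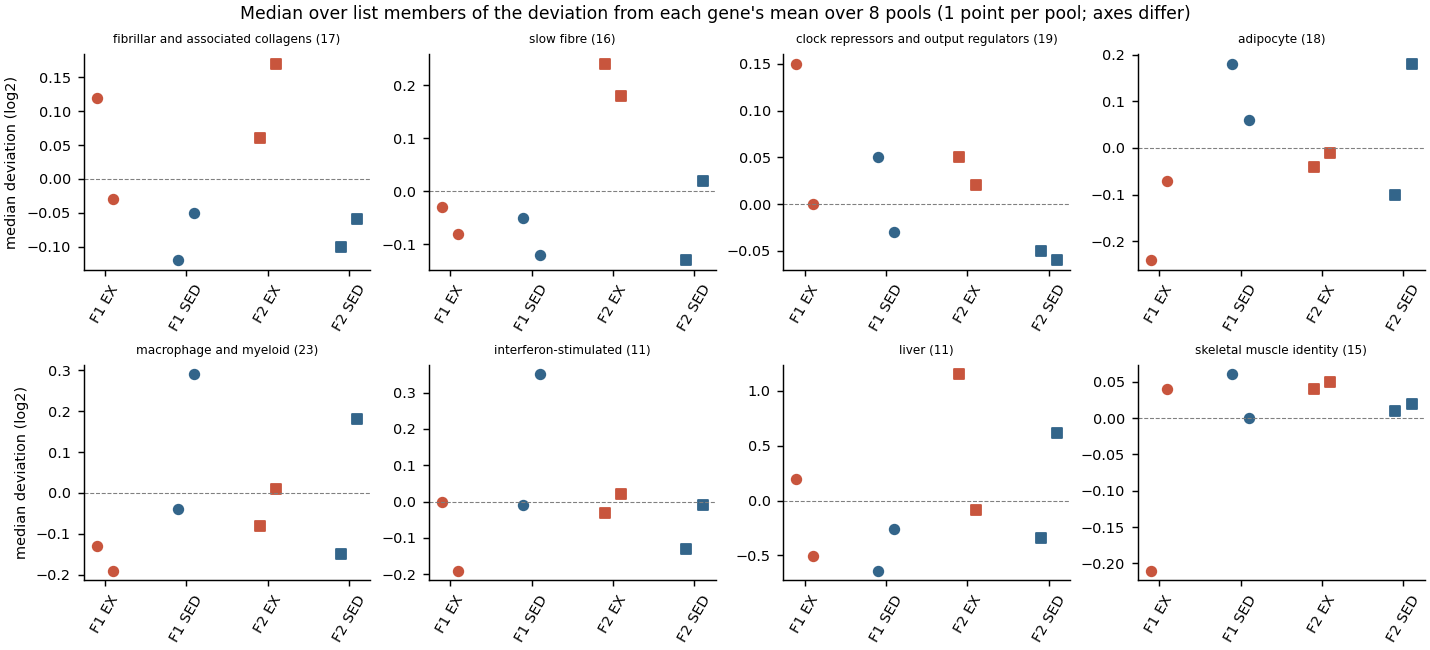
Median, over the members of 8 lists, of each gene's deviation from its mean over the 8 descendant pools (log2, vertical axes, which differ between panels), with 1 point per pool, EX in red and SED in blue, F1 as circles and F2 as squares. Collagen medians are -0.03 or higher in EX and -0.05 or lower in SED, the interferon median of 0.35 belongs to F1 SED pool 2, and the liver medians of 1.15 and 0.62 belong to F2 EX pool 1 and F2 SED pool 2.

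Transcripts of other organs were also present in some pools. Liver genes had 9 of 11 estimates above 0 and a median of 0.30, but no member had an unadjusted p under 0.05. Albumin (Alb) had 7.11, 6.30, 10.04 and 7.84 in EX and 6.23, 7.35, 7.31 and 9.02 in SED, with F2 EX pool 1 and F2 SED pool 2 far above the rest. The list median was -0.08 without F2 EX pool 1, -0.05 without F2 SED pool 1, 0.17 without F1 EX pool 1 and 0.46 without F2 EX pool 2, and the last setting gave 3 members an unadjusted p under 0.05. Of the 3 erythrocyte genes tested, Car2, a carbonic anhydrase, had 0.32, the haem synthesis gene Alas2 0.30 and the anion exchanger Slc4a1 0.22, and F1 EX pool 1 had the highest signal of the 8 in all 3. The list median was 0.30 with all pools, 0.13 without F1 EX pool 1, 0.18 without F2 EX pool 2 and 0.55 without F1 EX pool 2. Of 11 lymphocyte markers with a probe set, 1 reached the level at which genes were tested. Endothelial markers had 13 of 21 above 0 and a median of 0.04, led by the adhesion molecule Icam2 at 0.38 (unadjusted p = 0.00178), in which F2 EX pool 1 at 4.50 fell just under F1 SED pool 2 at 4.51.

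Among stress-linked lists, immediate early genes had 15 of 19 above 0 with a median of 0.07, but 8 of 19 and -0.06 without F1 EX pool 1. Their members with an unadjusted p under 0.05 lay on both sides of 0: Jun at 0.35, Ier5 at 0.31 and Ier3 at 0.28 above, and Egr1 at -0.35 and Egr3 at -0.28 below. Jun had 8.33, 7.84, 8.07 and 7.87 in EX and 7.57, 7.82, 7.75 and 7.59 in SED, which did not overlap, and 0.24 without F1 EX pool 1. Ier5 had 0.20 without F1 SED pool 1, and Ier3 0.17 without F2 EX pool 2. Heat shock genes were evenly divided with all pools, with Dnajb1 at 0.35 and Hspa1a at -0.34. Without F1 EX pool 1, 15 of 20 lay above 0 with a median of 0.04. Proteasome subunits had 18 of 27 above 0 with a median of 0.07, and 24 of 27 and 0.05 without F1 EX pool 1. Of 19 imprinted genes 7 lay above 0, with the growth restrainer Cdkn1c at 0.24 (unadjusted p = 0.0199), and writers and readers of DNA methylation and histone marks had 11 of 17 above 0 with a median of 0.03 and none at an unadjusted p under 0.05. Without F2 SED pool 1 the latter had 8 of 17 above 0 and a median of -0.01.

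The remaining lists had medians between -0.05 and 0.06, against 0.01 over all genes. Regulators of mitochondrial biogenesis had 14 of 21 estimates above 0, genes of glucose uptake and insulin signalling 8 of 22, growth factors and myokines 11 of 21, and atrophy genes 12 of 21. Antioxidant genes had 13 of 23 above 0, calcium handling genes 14 of 24, Wnt modulators 8 of 16, NAD salvage genes 7 of 14, and developmental and myogenic genes 9 of 20. Single pools turned several of these. Glucose genes had 12 of 22 above 0 without F1 EX pool 1 or F1 SED pool 1, and atrophy genes 10 of 21 without F1 SED pool 2. Calcium handling genes had 20 of 24 without F1 EX pool 1 and 12 of 24 without F2 SED pool 1. Antioxidant genes had 10 of 23 without F2 SED pool 1, growth factors 9 of 21 without F2 EX pool 2 and 10 of 21 without F1 EX pool 1, and NAD salvage genes 10 of 14 without F1 SED pool 1. Developmental genes had 12 of 20 without F1 EX pool 2 and 13 of 20 without F1 SED pool 1. Among markers of other cells, pericyte and smooth muscle genes had 8 of 13 above 0, Schwann cell and nerve genes 5 of 10, keratinocyte genes 2 of 8 and heart genes 3 of 6. Without F1 EX pool 1 pericyte genes had 6 of 13 and keratinocyte genes 4 of 8, the latter count also without F2 SED pool 2, and without F1 EX pool 2 keratinocyte genes had 1 of 8. Skeletal muscle identity genes had 2 of 15 above 0 with a median of -0.04, 11 of 15 and 0.02 without F1 EX pool 1, and 6 of 15 and -0.02 without F1 SED pool 1. Their median deviation was -0.21 in F1 EX pool 1 and 0.00 to 0.06 in the other descendant pools.

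The estimates of the 2 generations, which share no arrays, were almost uncorrelated across genes. F1 and F2 estimates had the same sign in 6110 of 11963 genes (51.1%), and their Pearson r across genes was 0.042, and -0.0016 without F1 EX pool 1. Genes are not independent, and no test was made. Pools separated in the same direction within both generations in 425 genes with EX above (3.55%) and 300 with EX below (2.51%), and in opposite directions in 707 (5.91%). In F1 alone limma called 0 genes (0.0%), with 584 at an unadjusted p under 0.05 (4.88%), 1.98% above 0 and 2.9% below. In F2 alone it called 0 (0.0%), with 532 (4.45%), 1.81% above and 2.64% below. Genes were called in F1 without F1 EX pool 2 and without F1 SED pool 1. Each of these fits leaves 1 array in an F1 group and assumes that it varies like the other groups. Without F1 SED pool 1 the lone array is F1 SED pool 2, the one with high interferon-stimulated genes. The F1 estimate of Iigp1 was then -4.8.

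**Figure D5:**
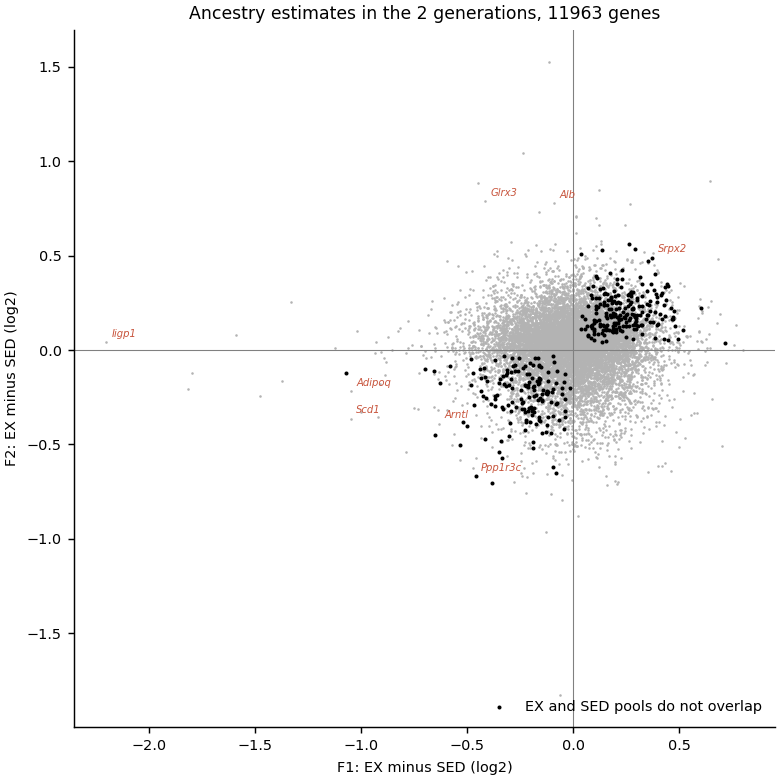
EX minus SED estimates (log2) in F1 (horizontal axis) against F2 (vertical axis) for 11963 genes (grey), with the 362 genes whose EX and SED pools do not overlap in black and 8 genes named. The cloud has no slope (Pearson r 0.042), the black points fill the 2 quadrants of equal sign because of how they were chosen, and Iigp1 lies far left through 1 F1 SED pool.

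The difference between the generations' effects was tested directly, and 0 genes passed (0.0%), with 519 at an unadjusted p under 0.05 (4.34%; 2.28% above 0 and 2.06% below) and a lowest adjusted p of 0.919. The omissions of F1 EX pool 2 and of F1 SED pool 1 also gave calls of this difference, with the same limit of a lone array in a group. Among the genes named for a small p in this test, Glrx3, a glutaredoxin of iron-sulfur cluster assembly, had the largest difference, 1.20 (SE 0.196). In F1 it stood at 4.64 and 4.29 in EX and 4.87 and 4.89 in SED, and in F2 at 5.56 and 5.58 in EX and 4.75 and 4.81 in SED, so that the EX pools were lowest in F1 and highest in F2. Chondroadherin (Chad), a cartilage and tendon matrix protein, had 7.55 and 7.59 against 8.01 and 7.89 in F1, and 8.05 and 8.40 against 7.67 and 7.76 in F2. Cyp26b1, which breaks down retinoic acid, went the other way, with an F1 estimate of 0.27 and an F2 estimate of -0.45.

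The founders, whose own life differed, had 1 pool per group at 28 weeks of age, and their values are set beside those of the descendants without a test. The F0 SED array had the lowest median correlation with the other arrays of the series, 0.974, against 0.986 for F0 EX. Differences between these 2 arrays may follow that array. Ppp1r3c had a signal of 9.07 in the F0 EX pool and 8.24 in the F0 SED pool, the opposite order to its descendants, and Arntl at 5.65 and 5.76. Myo1d had 5.36 and 5.44, Maged1 5.66 and 5.93, and Srpx2 4.20 and 4.61, each lower in F0 EX, whereas Tnnt1 (8.63 and 8.30), Myh7 (9.29 and 8.61) and Usp2 (8.91 and 8.59) were higher in F0 EX, as in the descendants. Of the 209 genes with all descendant EX pools above SED, 119 (56.9%) had a higher signal in the F0 EX pool, and of the 153 with EX below, 80 (52.3%). Over all genes tested the share was 58.0%.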

How the data were processed

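The authors deposited log2 probe set signals from Affymetrix mouse whole-transcript arrays, 1 value per probe set and array, made with Affymetrix Expression Console per the submitters' processing notes; the sources used here give neither its version nor the summarisation method. Precision is limited by the small number of arrays. Of 35557 probe sets, 21789 carried 1 gene symbol, 1621 several and 12147 none in GEO's platform annotation. Entrez identifiers of 21698 matched the RefSeq table, which changed 0 symbols. The probe set with the highest mean stood for each of 19938 genes (999 had more than 1), and genes at or above the 40th percentile of the mean over the 10 arrays (3.23) were tested. Generation and ancestry were fitted with limma 3.58.1 in R 4.3.3, in an additive model for both generations and a model of the 4 groups for F1, F2 and their difference, with Benjamini-Hochberg adjustment over all 11963 genes and a threshold of 0.05. Unadjusted p-values and 95% intervals are from the same fits, which were tested on simulated data. Tables were handled in Python 3.11.15 with pandas 2.3.3 and numpy 2.4.6.

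Named were the 15 genes per direction with the smallest p and the 5 with the largest estimates among genes with separated pools, all clock and glycogen genes, up to 6 genes with the smallest p of each other list, a set followed in exercised muscle, and the 6 per direction with the smallest p for the difference between generations. The comparison and the 45 gene lists were chosen with earlier results of these data known. A list is described by its counts and median beside all genes, with no test. Alternatives were other scaling, filters, variance models, array weights, probe set choice, all probe sets, a replicate block, the F0 pair, no generation term, and each pool left out. Fits on all probe sets, list counts without each pool, and separation without F1 EX pool 1 were added after seeing the data. Promoter windows were RefSeq's, build GRCm38.p6.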

Additional observations from a re-analysis of the deposited data

Results flagged for a closer look

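In 33 genes the 4 pools of each ancestry were checked for a pool far from the others (66 checks, Dixon's critical value 0.829, which chance exceeds about 1 time in 20), and 5 were found. Rab2a was low in F1 EX pool 1, at 7.75 against 9.82 to 9.86 in the other EX pools, and high in F2 SED pool 1, at 10.04 against 9.86 to 9.89. Mmp14 had 7.02 in F1 EX pool 1 against 6.95 to 6.96, Adamtsl3 4.40 in F2 EX pool 1 against 4.07 to 4.11, and Orai2 3.91 in F1 SED pool 2 against 3.75 to 3.78.

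In 12 named genes the EX and SED pools separated one way in F1 and the other way in F2, as they did in 707 genes (5.91%). The difference of effects, F2 minus F1, was 1.20 for Glrx3, 0.89 for Chad, 0.85 for the transcription factor Csrnp2, 0.80 for Zfp1, 0.71 for Kbtbd4 and 0.69 for the kinase Mark4. It was -1.03 for the olfactory receptor Olfr1395, -0.92 for Mpped1, -0.90 for Lce1h, -0.89 for Kbtbd11, -0.77 for Ggnbp2os and -0.72 for Cyp26b1. None passed limma's test of the difference (adjusted p = 0.919 for each), and these genes were named for their small p.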

How the results depend on the processing

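The count of genes called over both generations was 0 in each of 20 other settings, with a lowest adjusted p from limma of 0.0894 over all probe sets, 0.131 without F1 EX pool 1, 0.227 without F2 SED pool 1, 0.281 without F1 EX pool 2, 0.338 with array weights, and 0.842 to 0.999 in the others. The F2 count was 0 throughout. Leaving out 1 pool gave 0 to 1046 calls in F1 and 0 to 143 for the difference between generations; the high ends came without F1 EX pool 2, where the lone remaining F1 EX array is assumed to vary like the other groups. With pool number as a replicate block the count was 0, with 666 genes at an unadjusted p under 0.05 against 597. Pools of the same number deviated together with r of 0.0159 in F1 and 0.0643 in F2, so the numbers were not taken as pairs. Separated genes numbered 617 with no filter (365 above, 252 below, of 19938), 238 above and 154 below under quantile scaling, and 172 and 73 with the 60th percentile filter and 203 and 154 with the mean of probe sets. Over both generations no named gene was called in any of 19 settings other than the main one, but the estimate took either sign over them in 80 of 326. Of these, 6 had an estimate of 0.2 or more in size: Irgm1 (-0.93 to 0.17), Alb (-0.18 to 0.70), Bnip3 (-0.30 to 0.06), Insig1 (-0.34 to 0.06), Prdx3 (-0.38 to 0.08) and Twnk (-0.32 to 0.05). Of 45 list medians 21 took either sign. Of the list medians 828 moved by less than the spread and 25 by more, among them fibrillar collagens at 0.07 with the F0 pair. With 2 pools a group precision was low. The median 95% interval of 0.23 either side came from the fit over both generations, without adjustment for the number of genes. It is not a limit above which effects were called: Arntl at -0.51 had an adjusted p of 0.888 by limma.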

Other observations

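Probe sets without a gene symbol were outside the comparison of genes. In a fit over all 35557 probe sets, 4 such probe sets had the lowest adjusted p from limma, 0.0894 each, and none passed 0.05. Probe set 10342801 had signals of 4.90, 4.79, 4.54 and 4.22 in EX and 3.57, 3.70, 3.38 and 3.31 in SED, an estimate of 1.12 (SE 0.102), with 4.09 in F0 EX and 4.86 in F0 SED. Probe set 10341424 had an estimate of 0.89, 10344464 of -1.05 and 10340461 of -1.07. In each the EX and SED pools were far apart in both generations. In F0 EX and F0 SED, 10341424 had 2.21 and 3.08, 10344464 3.26 and 1.77, and 10340461 3.45 and 3.75. Only 10340461 kept the order of the descendants there. The adjusted p of these probe sets ranged from 0.0583 to 0.963 over the settings tried, highest with the F0 pair included. An unadjusted p under 0.05 was reached by 8.53% of probe sets with no symbol, 3.34% of those with 1 symbol and 1.73% of those with several, while pools separated in 3.33%, 3.21% and 3.15%. The median of their mean signals was 2.56, 3.95 and 3.12, and genes were tested only from 3.23 up. Probe set 10341424 had means of 2.85 in EX and 1.96 in SED, both below that level. The EX means of 10344464 and 10340461, 2.51 and 2.49, were also below it.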
